A study of Mus musculus with 288 samples.

Results

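The lung was compared with liver, kidney, muscle and heart in normoxia, gene by gene, to show which transcripts are most and which are least abundant in this organ. The comparison used all 24 lung libraries of normoxic mice against the 96 libraries of the other 4 tissues, out of 288 libraries in the series. Genes were kept where the mean was at least 5 TPM (transcript abundance corrected for transcript length and library total) in any of the 5 tissues, which left 12977 of 35904 genes. A gene was higher in lung when it exceeded the tissue of highest mean, and lower in lung when it fell below the tissue of lowest mean, each at a Benjamini-Hochberg adjusted p of 0.05 or less from limma and a difference of at least 1.5-fold from the nearest tissue. The p of a gene was the largest of its 4 p-values against the single tissues.

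The lung exchanges gas across alveoli lined by flat alveolar type 1 (AT1) cells and by cuboidal alveolar type 2 (AT2) cells, which make surfactant, a mixture of lipids and proteins that lowers surface tension. Its conducting airways are covered by secretory club cells and by multiciliated cells that move mucus, while the alveolar wall holds a dense capillary bed and the airspace its own resident macrophages. Liver, kidney, skeletal muscle and heart share endothelium, fibroblasts and blood with the lung but are known for a high content of mitochondria.

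The animals were male wild type C57BL/6J mice of 8 weeks, kept either in normoxia or under intermittent hypoxia (IH), in which inhaled oxygen was cycled from 21% to 8% and back during the resting phase for 7 days. All mice then spent 2 days in constant normoxic darkness, and tissues were collected every 3 hours over 24 hours on the second of these days. Each tissue and treatment had 3 replicates at each of 8 time points, from 1:30 to 22:30, and the time points were pooled here unless stated. By the paper's account, several organs were taken from the same group of mice, so libraries of different tissues share mice. The labels do not record which libraries came from the same mouse, so p-values take libraries as independent and ignore this sharing. RNA was taken from whole tissue, in which fewer cells of a type and less RNA per cell cannot be told apart.

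Levels are given as scaled TPM, that is, deposited TPM divided by a factor per library (the median ratio over the 14791 genes above 0 in all 120 libraries), and differences are on the scale of log2(scaled TPM + 0.5) with their standard error. The factors averaged 1.84 in lung, 0.644 in liver, 1.12 in kidney, 0.983 in muscle and 0.805 in heart. With them the median gene differed between lung and the other tissues by -0.09 to 0.09 on the log2 scale, whereas with deposited TPM the median gene was higher in lung by 0.57 to 1.32. The files hold no read counts, so the counts behind single values are unknown.

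Several libraries stood apart. Among the hearts, the libraries of 7:30 replicate 3 and 19:30 replicate 3 had the lowest median correlation with other hearts (0.877 and 0.917) and held genes of thymocytes, such as the recombinase gene Rag1 (117 and 103 scaled TPM). Scgb1a1, the main secretory protein of club cells, reached 1033 and 1895 scaled TPM in the hearts of 13:30 replicate 3 and 19:30 replicate 2, 1162 and 307.5 in the former pair, and 211 in the muscle of 22:30 replicate 2, against at most 1.80 in the other 20 hearts. The lung of 1:30 replicate 2 had the highest summed levels of the club, multiciliated and cardiomyocyte lists. Without those 5 libraries of other tissues, 1608 genes were higher in lung, of which 1563 were shared with the 1598 of all libraries, and without that lung library 1624 were higher, of which 1591 were shared.

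In normoxia 1598 genes (12.3% of those tested) were higher in lung than in each of the 4 tissues and 1281 (9.87%) were lower. The differences of the higher genes reached further than those of the lower genes. At 8-fold or more, 169 genes were higher and 18 lower, and at 64-fold or more 20 were higher and 0 lower. For 808 of the 1598 higher genes the lowest lung library lay above the highest of the 96 others, which was so for 6.32% of all genes tested, and for 894 of the 1281 lower genes the highest lung library lay below all others (7.27% of all genes tested). Of the 12977 genes, 1661 passed the minimum only through their lung mean and 872 of these were among the higher genes, a count that the minimum itself favours. Such genes made up 10 of the 20 AT2, 6 of the 16 AT1, 5 of the 14 club, 12 of the 13 multiciliated and 8 of the 18 lymphocyte genes tested. They also made up 5 of the 13 alveolar macrophage, 7 of the 24 transcription factor and 5 of the 23 fibroblast, smooth muscle and pericyte genes. In the neutrophil and monocyte list they were 4 of 11, and in the MHC class II list 4 of 10. The counts of each list below stand against 12.3% higher and 6.32% above all other libraries among all genes tested. Counts of lower genes stand against 9.87% lower and 7.27% below all other libraries, or 2.25% lower with deposited TPM.

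The split between directions depended on the scaling. With TPM as deposited, 4607 genes (35.5%) were higher and 292 (2.25%) lower, so that the higher share of called genes went from 55.5% to 94%. All 1598 genes higher on the scaled values were also higher on the deposited ones, and the 292 lower genes were all among the 1281. Heart was the tissue nearest to lung for 815 (51.0%) of the higher genes, followed by muscle for 325, kidney for 309 and liver for 149, while heart had the highest of the 4 means for 21.6% of all genes tested. For the lower genes the nearest tissue was more even, with 371 for muscle, 338 for heart, 288 for kidney and 284 for liver. These nearest-tissue counts include the heart and muscle libraries that stood apart, and were not computed without them.

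**Figure D1:**
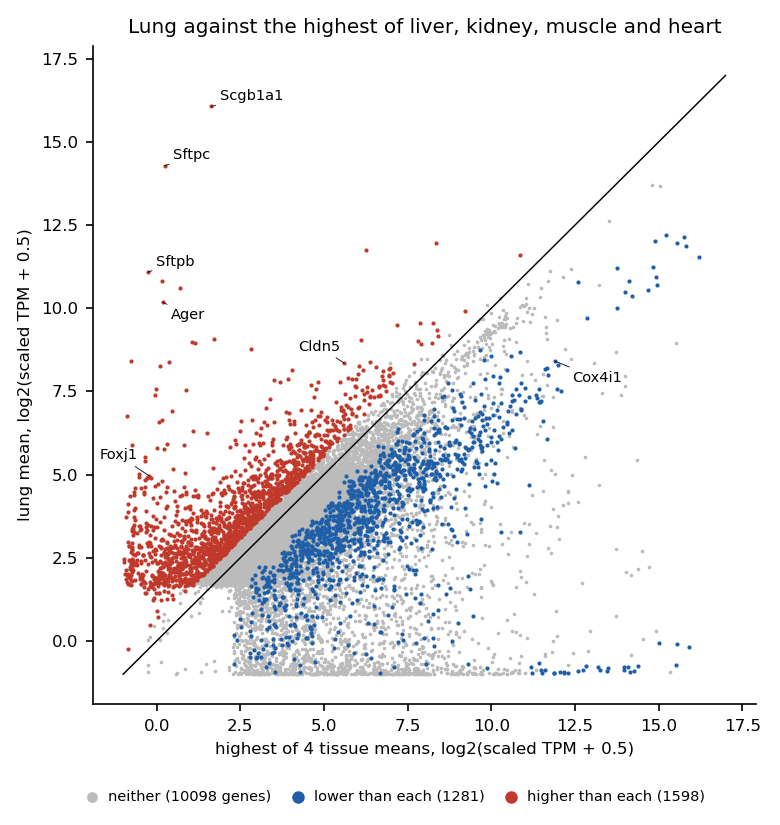
Each point is a gene, with the highest of the 4 other tissue means on the horizontal axis and the lung mean on the vertical axis, both as means of log2(scaled TPM + 0.5), and the diagonal marks equal means. Scgb1a1 and Sftpc lie farthest above the diagonal, among 1598 genes called higher and 1281 called lower, and Cox4i1 marks the lower genes of the respiratory chain.

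Genes of AT2 cells, which make and recycle surfactant, were separated from the other tissues by wide margins. Of 20 AT2 genes tested, 15 were higher in lung and all 15 had no overlap with any other library, with a median of 4.38 (log2) over the nearest tissue against -0.79 for all genes. Sftpc, surfactant protein C (chr14:70520949-70524081, coordinates of the mm10 build), ranged from 17971 to 24359 scaled TPM over the 24 lungs with a median of 19852. In the other tissues its maximum was 0.663 in liver, 0.0584 in kidney, 64.7 in muscle and 184 in heart, and the highest muscle and heart values belonged to libraries with raised Scgb1a1. Its difference from muscle, the nearest tissue, was 14.04 ± 0.37 (adjusted p 6.5e-67).

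Sftpb, surfactant protein B, had 1562, 2259.8 and 2716 scaled TPM as its lowest, median and highest lung value and at most 13.2 elsewhere (11.35 ± 0.18, adjusted p 5.2e-91). Sftpa1, the collectin surfactant protein A, had 1492, 1822 and 2011, and its highest liver value was 2.42 (10.64 ± 0.23, adjusted p 1e-76). Both genes had narrow ranges in lung, with less than 1 log2 unit between the extremes. Slc34a2, a phosphate transporter of the AT2 apical membrane, had a lung median of 319.9 (184 to 387) and differed by 8.18 ± 0.13, and Lamp3, a protein of lamellar bodies, had 106 (85.3 to 135) and differed by 7.63 ± 0.05. The chemokine gene Cxcl15 had 378 (173 to 562) and differed by 9.18 ± 0.11.

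The remaining 5 AT2 genes were not higher in lung, and each had a second tissue with a like or higher level. Napsa, an aspartic protease that processes surfactant protein B, had 107, 160.0 and 205 scaled TPM in lung but 477, 978 and 1417 in kidney (-2.59 ± 0.12 against kidney). Abca3, the lipid transporter of lamellar bodies, had 41.4, 59.3 and 76.0 in lung and 35.4, 54.0 and 86.7 in kidney, a difference of 0.10 ± 0.08 that was within the error (adjusted p 0.25). S100g, a calcium-binding protein, had a median of 101.9 in lung and 2138 in kidney. Ctsh, a cathepsin, was higher in liver (median 365) than in lung (173), and Fasn, fatty acid synthase, was higher in muscle (404) and liver (206) than in lung (105).

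Nkx2-1 is the homeobox factor of lung epithelium, and its known core motif CTCAAG was searched on both strands upstream of lung epithelial genes and of Nkx2-1 itself. The sequences of 3 of the genes that held it (Sftpb, Sftpa1 and Scgb3a1) are shown beside that of Nkx2-1, and were thus chosen after the search. They are RefSeq windows of the GRCm38.p6 build, on the strand of the gene, without bases inside the annotated gene, and capitals mark the motif (CTTGAG is its other strand). The windows are chr6:72304360-72304609 (plus strand) for Sftpb, chr14:41131538-41131781 (plus) for Sftpa1, chr11:49663345-49663594 (plus) for Scgb3a1 and chr12:56536909-56537158 (minus) for Nkx2-1.
Sftpb: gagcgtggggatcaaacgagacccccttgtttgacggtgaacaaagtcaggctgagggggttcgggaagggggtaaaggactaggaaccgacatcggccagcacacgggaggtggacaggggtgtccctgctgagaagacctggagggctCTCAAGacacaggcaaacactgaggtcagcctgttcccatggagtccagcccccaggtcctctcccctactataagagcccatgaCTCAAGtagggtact
Sftpa1: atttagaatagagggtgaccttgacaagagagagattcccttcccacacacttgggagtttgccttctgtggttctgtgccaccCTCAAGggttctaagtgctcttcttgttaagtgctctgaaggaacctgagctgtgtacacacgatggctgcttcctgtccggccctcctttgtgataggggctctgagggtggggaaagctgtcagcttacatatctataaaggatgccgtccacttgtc
Scgb3a1: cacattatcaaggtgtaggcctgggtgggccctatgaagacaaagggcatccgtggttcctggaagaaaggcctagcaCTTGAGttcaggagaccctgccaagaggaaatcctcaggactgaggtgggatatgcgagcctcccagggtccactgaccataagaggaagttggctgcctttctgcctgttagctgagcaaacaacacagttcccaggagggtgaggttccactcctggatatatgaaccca
Nkx2-1: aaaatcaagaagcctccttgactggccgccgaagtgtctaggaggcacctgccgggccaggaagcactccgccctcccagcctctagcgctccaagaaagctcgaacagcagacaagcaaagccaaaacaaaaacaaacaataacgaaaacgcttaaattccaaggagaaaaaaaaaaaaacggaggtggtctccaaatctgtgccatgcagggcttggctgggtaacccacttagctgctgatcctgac
The Sftpb window held the motif 100 and 15 bases before the RefSeq start, the Sftpa1 window at 166 bases and the Scgb3a1 window at 172 bases, while the letters were not in the Nkx2-1 window, nor in those of Ager, Cxcl15, Lamp3 and Aqp5. The motif was present in 13.3% of all 32851 RefSeq promoter windows, and in 2 of the 17 windows of the 16 matched AT2 genes, so its presence is a description of these windows only.

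**Figure D2:**
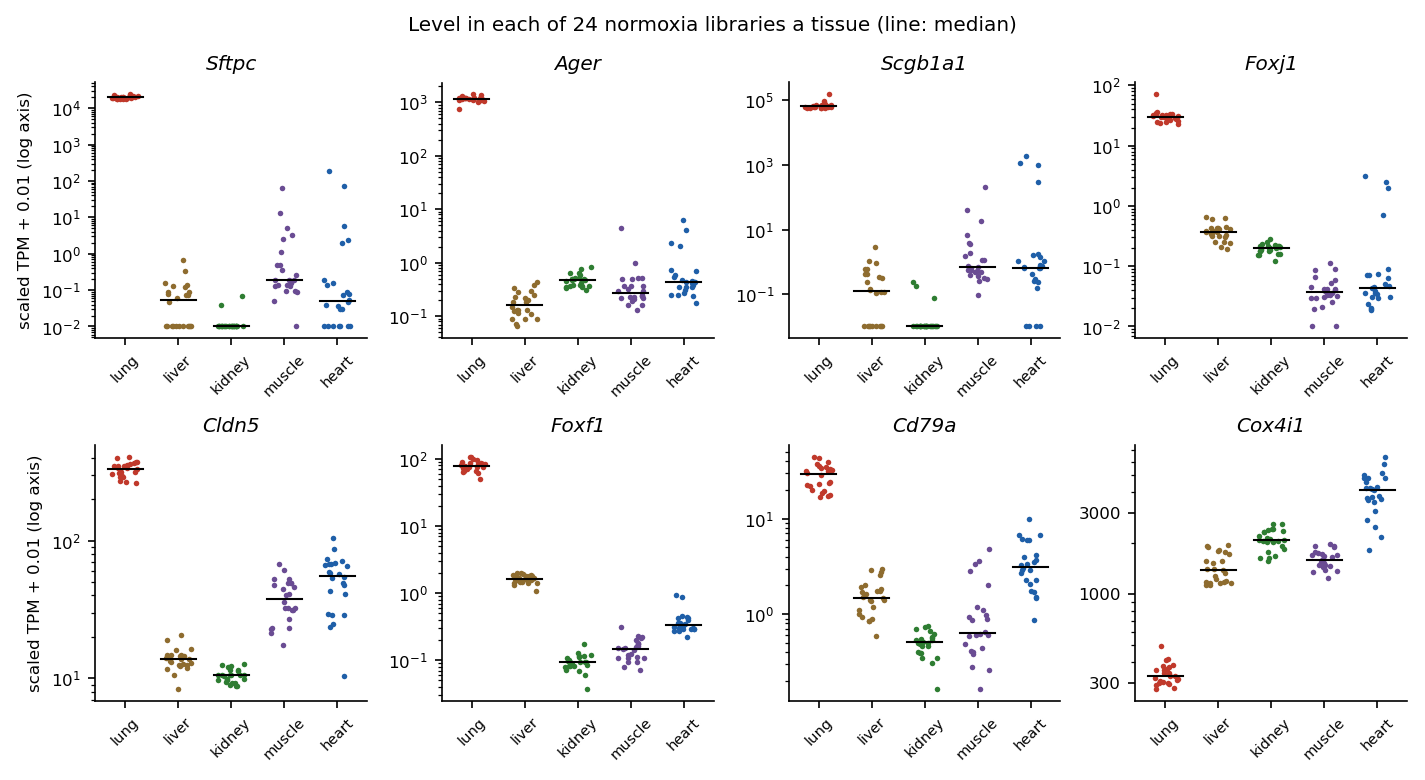
Each point is a library, with the 5 tissues side by side (24 libraries each) and scaled TPM + 0.01 on a log axis, and lines mark medians. Sftpc, Ager, Foxj1 and Foxf1 have no overlap between lung and the other tissues, single heart libraries reach 1895 for Scgb1a1, and Cox4i1 is lower in lung (278 to 496) than in each other tissue.

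AT1 genes followed the same pattern. Of 16 tested, 13 were higher in lung, 12 of them without overlap, with a median of 3.99 (log2) over the nearest tissue. Ager, the receptor for advanced glycation end products, a marker of AT1 membranes (chr17:34597862-34600936), had 739, 1179 and 1426 scaled TPM as lowest, median and highest lung value, with the lowest in the library of 1:30 replicate 2. No other library exceeded 6.37, and the difference from heart was 9.99 ± 0.14 (adjusted p 2.6e-96). Aqp5, a water channel, had a median of 189 (156 to 221) and differed by 7.60 ± 0.14, and Cldn18, a tight junction claudin, had 179.9 (91.6 to 229) and differed by 7.45 ± 0.08.

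Hopx, a homeodomain cofactor that is also expressed in cardiac muscle, had 529, 652 and 794 scaled TPM in lung and 116, 351 and 469 in heart. The ranges did not overlap, and the difference was 0.98 ± 0.09 (adjusted p 3.5e-20). Igfbp2, an insulin-like growth factor binding protein, was below liver (median 159 against 764), and Col4a3, a collagen of basement membranes, had 18.0 in lung and 21.0 in kidney. These and Col4a4 were the AT1 genes not called.

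Genes of club and other secretory airway cells included the most abundant transcript of the lung. Of 14 tested, 11 were higher in lung and 9 did not overlap, with a median of 5.36 (log2) over the nearest tissue. Scgb1a1 (chr19:9083636-9087958) had 57591, 65148 and 156718 scaled TPM as its lowest, median and highest lung value, the highest in the library of 1:30 replicate 2. The heart median was 0.655 and the difference from heart was 14.43 ± 0.56 (adjusted p 3e-49), and 4 hearts stood above the rest. Scgb3a2, a related secretoglobin, had 1464 (1115 to 4235) against at most 601 in heart (9.91 ± 0.43), and Scgb3a1 had 519 (359 to 1669.9) against at most 299 in heart (7.37 ± 0.33).

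Cbr2, carbonyl reductase of the airway, had 2418, 3413 and 5834 scaled TPM in lung and 51.7, 77.5 and 94.1 in muscle (5.48 ± 0.12). Bpifa1, an airway surface protein, had a lung median of 512 (233 to 1484), and 1 heart at 971 overlapped that range (7.93 ± 0.46). The antimicrobial lectin Reg3g had 53.3 (31.5 to 133), with a heart maximum of 117. Both maxima belonged to the heart of 19:30 replicate 2, which had raised Scgb1a1. Cyp2f2, a cytochrome P450 of club cells and of hepatocytes, had the same median in lung and liver (1254 in each, range 1029 to 2602 and 806 to 1722, difference 0.05 ± 0.26, adjusted p 0.88). Ces1d, a carboxylesterase with near-identical relatives whose reads may be shared, and Cckar were also not called.

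The raised hearts and the raised muscle differed in the proportion of these genes. In lung the ratio of Scgb1a1 to Sftpc ran from 2.91 to 8.11 with a median of 3.29. The muscle of 22:30 replicate 2 had a ratio of 3.26 and the heart of 13:30 replicate 3 one of 5.63, both within the lung range, whereas the hearts of 19:30 replicate 2, 19:30 replicate 3 and 7:30 replicate 3 had 25.6, 52.3 and 486, all above it. The count of genes higher in lung without these libraries is given above.

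The 13 multiciliated genes tested were higher in lung and none overlapped another library. Of these, 12 passed the minimum only through lung, which favours that call, so the count is a description. Their median was 3.41 (log2) over the nearest tissue. The other 5 of the 18 listed (Dnah9, Dnah11, Spef2, Hydin and Spag17, structural proteins of motile cilia) were under the minimum. Foxj1, the transcription factor of motile ciliogenesis, had 22.6, 30.3 and 71.7 scaled TPM in lung and at most 3.18 elsewhere (5.18 ± 0.12). Dynlrb2, a dynein light chain, had 51.0 (42.3 to 146) and differed by 5.80 ± 0.17, Ccdc153 had 72.7 (58.9 to 191) and differed by 4.75 ± 0.16, and Tppp3, a tubulin polymerization protein found in other tissues too, had 297 (246 to 423) against a muscle median of 90.1 (1.69 ± 0.09). The window upstream of Dynlrb2 (chr8:116504765-116504973, plus strand, GRCm38.p6) is shown because it held GTTGCC, one arm of the motif of the ciliary RFX factors, in capitals, 51 bases before the RefSeq start.
Dynlrb2: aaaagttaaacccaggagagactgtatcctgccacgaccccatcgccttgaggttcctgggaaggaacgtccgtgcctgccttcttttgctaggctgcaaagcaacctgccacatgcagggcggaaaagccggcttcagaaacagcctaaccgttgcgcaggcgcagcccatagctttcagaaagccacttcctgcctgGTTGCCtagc
Those letters, searched on both strands (GGCAAC on the other), were present in 10.4% of all windows. Of the 10 windows of the 9 matched multiciliated genes, 4 held them. A window of Tekt1 held them 35 and 15 bases before the RefSeq start, and those of Ccdc39 and Tmem212 did not hold them. The windows are few, and whether the list differs from all windows was not tested.

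Endothelial genes were higher in lung by smaller factors than the epithelial genes. Of 30 tested, 24 were higher in lung and 14 did not overlap, with a median of 1.31 (log2) over the nearest tissue, and 20 were higher without the 5 libraries of raised Scgb1a1. Calcrl, the adrenomedullin receptor, had 80.7, 241 and 328 scaled TPM in lung and 7.90, 13.0 and 15.6 in heart (4.10 ± 0.09). Tmem100, a membrane protein of lung capillaries, had 236 (129 to 276) against 11.5 in heart (4.31 ± 0.08). These were the endothelial genes with the largest differences among those named.

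Cldn5, the tight junction claudin of endothelium, had 333 (259 to 406) scaled TPM in lung against 55.6 (10.4 to 105) in heart (2.76 ± 0.12), and Ramp2, the partner of Calcrl, had 304 (217 to 388) against 70.3 (26.2 to 119), a difference of 2.21 ± 0.08. Ace, angiotensin converting enzyme, had 228 (80.9 to 314) against 47.4 (28.5 to 63.0) in muscle (2.30 ± 0.10). Hpgd, which degrades prostaglandins, had 297 (197 to 399.5) against 128 (96.7 to 173) in liver, a difference of 1.23 ± 0.06. None of these ranges overlapped.

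Pecam1, an adhesion molecule of endothelium, had 99.3, 187 and 235 scaled TPM in lung and 39.0, 77.8 and 104 in heart, ranges that overlapped at their edge, and differed by 1.19 ± 0.08, while Egfl7, a secreted vascular protein, differed by 0.64 ± 0.09 (319 against 212 at the median). The 6 genes not called were Cyp4b1, Gpihbp1, Car4, Flt1, Emcn and Aplnr. Cyp4b1, a monooxygenase, had a median of 1392 in kidney against 288 in lung, and Emcn, endomucin, had 50.6 in heart against 28.5 in lung. Gpihbp1, which anchors lipoprotein lipase, had 143 (97.5 to 207) in lung and 167 (59.0 to 243) in heart.

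Among genes of fibroblasts, smooth muscle and pericytes, 12 of 23 tested were higher in lung and 8 did not overlap, with a median of 0.68 (log2) over the nearest tissue. Mfap4, a microfibril protein of elastic fibres, had 65.2, 120.2 and 262 scaled TPM in lung and 6.86, 19.9 and 39.0 in heart (2.63 ± 0.10). Itga8, an integrin of alveolar interstitial cells, had 21.1 (10.95 to 26.8) against 3.46 in heart (2.43 ± 0.10). Inmt, a methyltransferase, had 949 in lung but 2070.1 in liver, and Acta2, smooth muscle actin, had 54.3 in lung and 85.1 in heart.

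Of 24 lung transcription factors tested, 12 were higher in lung and 11 did not overlap, against 12.3% and 6.32% of all genes tested. The list median was 0.75 (log2) over the nearest tissue. Nkx2-1 (chr12:56531958-56536908) had 47.3, 60.8 and 68.0 scaled TPM and at most 1.16 in any other library, a difference of 6.64 ± 0.06 (adjusted p 7.8e-116). Foxf1, a forkhead factor of lung mesenchyme and capillaries, had 77.6 (49.9 to 108) against 1.63 in liver (5.22 ± 0.05), and Tbx4, of lung mesenchyme, had 16.3 (8.97 to 20.2) against at most 1.31 in muscle (3.44 ± 0.04). Epas1, the hypoxia-inducible factor 2 alpha subunit, had 557 (298 to 689.7) against 72.1 (49.0 to 86.7) in muscle (2.96 ± 0.09). Cebpa and Foxa2, which also act in liver, had medians of 57.5 and 20.9 in lung against 397 and 35.2 in liver.

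Alveolar macrophage genes gave a mixed list, with 4 of 13 tested higher in lung and a median of -0.26 (log2) against the nearest tissue. The 4 were Chil3, Ear2, Krt79 and Itgax. All 4 passed the minimum only through lung, which favours that call, so their count is a description. Chil3, a chitinase-like protein, had 19.2, 126 and 289 scaled TPM in lung and at most 30.1 in muscle (6.44 ± 0.29). Ear2, an eosinophil-associated ribonuclease with close relatives among which reads may be split, had 60.2 (15.3 to 119) against 4.46 in liver (3.55 ± 0.12), and Itgax, the integrin CD11c, had 6.10 (3.50 to 11.7) and differed by 2.75 ± 0.08. Marco, a scavenger receptor, had 3.13 (1.62 to 6.30) in lung and 3.37 (0.901 to 13.5) in liver, and Fabp4, a fatty acid binding protein also of fat and vessels, had 83.9 in lung and 2906 in muscle.

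Lymphocyte genes were higher in lung for 17 of 18 tested, but only 4 of them did not overlap another library, and the count was 14 without replicate 1. The overlaps included the 2 hearts with thymocyte genes. The B cell receptor component Cd79a had 16.6, 29.4 and 44.4 scaled TPM in lung and 0.849, 3.13 and 9.84 in heart (2.89 ± 0.16), and the chemokine Ccl5 had 28.8 (16.1 to 48.8) against a heart maximum of 28.9 (2.92 ± 0.17). Cd3e, of the T cell receptor complex, had 3.08 (1.61 to 4.32) in lung and reached 92.2 in the heart of 7:30 replicate 3, and its difference of 0.80 ± 0.24 was called (adjusted p 0.0022). Cd4 was not called (0.45 ± 0.23, adjusted p 0.081).

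Of 11 neutrophil and monocyte genes tested, 9 were higher in lung and 1 did not overlap, against 12.3% and 6.32% of all genes tested. The list median was 1.99 (log2) over the nearest tissue. S100a8, a calprotectin subunit, had 25.6, 87.3 and 136 scaled TPM in lung and reached 609 in the muscle of 16:30 replicate 3 (3.30 ± 0.47). All 10 genes of antigen presentation by MHC class II were higher in lung and 6 did not overlap. Cd74, the invariant chain, had 759 (449 to 981) against 233 (165 to 339) in muscle and at most 436 in heart (1.69 ± 0.10), H2-Aa had 279 (231 to 342) against 113 in muscle (1.36 ± 0.10), and Ciita, their transactivator, had 5.70 (3.72 to 9.77) and differed by 2.05 ± 0.08.

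In the eicosanoid pathway 5 of 13 genes tested were higher in lung and 2 did not overlap, against 12.3% and 6.32% of all genes tested. The list median was 0.32 (log2) over the nearest tissue. Slco2a1, the prostaglandin transporter, had 77.3 (31.5 to 109) against 19.5 (14.1 to 37.2) in liver (1.73 ± 0.10), and Alox5ap, which presents arachidonate to 5-lipoxygenase, had 51.4 (41.4 to 64.3) against 31.6 (18.5 to 45.9) in heart (0.76 ± 0.08). Ptgis, prostacyclin synthase, had 32.7 in lung and 29.7 in heart (0.13, adjusted p 0.13), and Ptgds, prostaglandin D synthase, had 0.367 in lung and 248 in heart. Among mesothelial genes 3 of 6 were higher in lung (Nkain4, Msln and Upk1b) and all 3 overlapped another library, with a list median of 0.63 (log2). Nkain4 had 36.8 (31.0 to 43.9) against 22.6 (12.5 to 55.7) in heart (0.68 ± 0.11).

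Among genes on no list, the 12 with the largest differences from the nearest tissue were Sfta2, Cxcl17, Lgi3, Gramd2, Rasgef1a, Fam183b, Chia1, Ear1, Acoxl, Npw, Glp1r and Gpx2. Sfta2, surfactant associated protein 2, had 84.5, 97.8 and 116 scaled TPM in lung and at most 1.21 in muscle (6.48 ± 0.07). The mucosal chemokine Cxcl17 had 40.3 (34.9 to 94.5) against at most 9.25 in heart (5.77 ± 0.16), and Lgi3 had 61.8 (46.4 to 72.0) against at most 1.57 in heart (5.60 ± 0.05). Chia1, an acidic chitinase, had 28.6 (22.8 to 38.5) and differed by 5.17 ± 0.06. Glp1r, the receptor for glucagon-like peptide 1, had 24.9 (15.8 to 29.7) against at most 0.670 in heart (4.99 ± 0.04).

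The rest of these 12 had differences of 4.84 to 5.45. Rasgef1a, a guanine nucleotide exchange factor, was the steadiest of them, with 26.5, 29.7 and 33.1 scaled TPM in lung (5.21 ± 0.03). Gpx2, a glutathione peroxidase of epithelia, had 19.5 (15.7 to 52.8) and differed by 4.84 ± 0.13. Lyz2, lysozyme of myeloid and AT2 cells, was among the 10 genes of highest lung mean, with 4049 (2595 to 5217) against 339 (190.1 to 509.8) in heart (3.62 ± 0.10), though reads may be split with Lyz1. The 10 genes, which also included Scgb1a1, Sftpc, the haemoglobin genes Hba-a1, Hba-a2 and Hbb-bs and mitochondrially encoded genes, held 27.1% of the lung TPM.

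**Figure D3:**
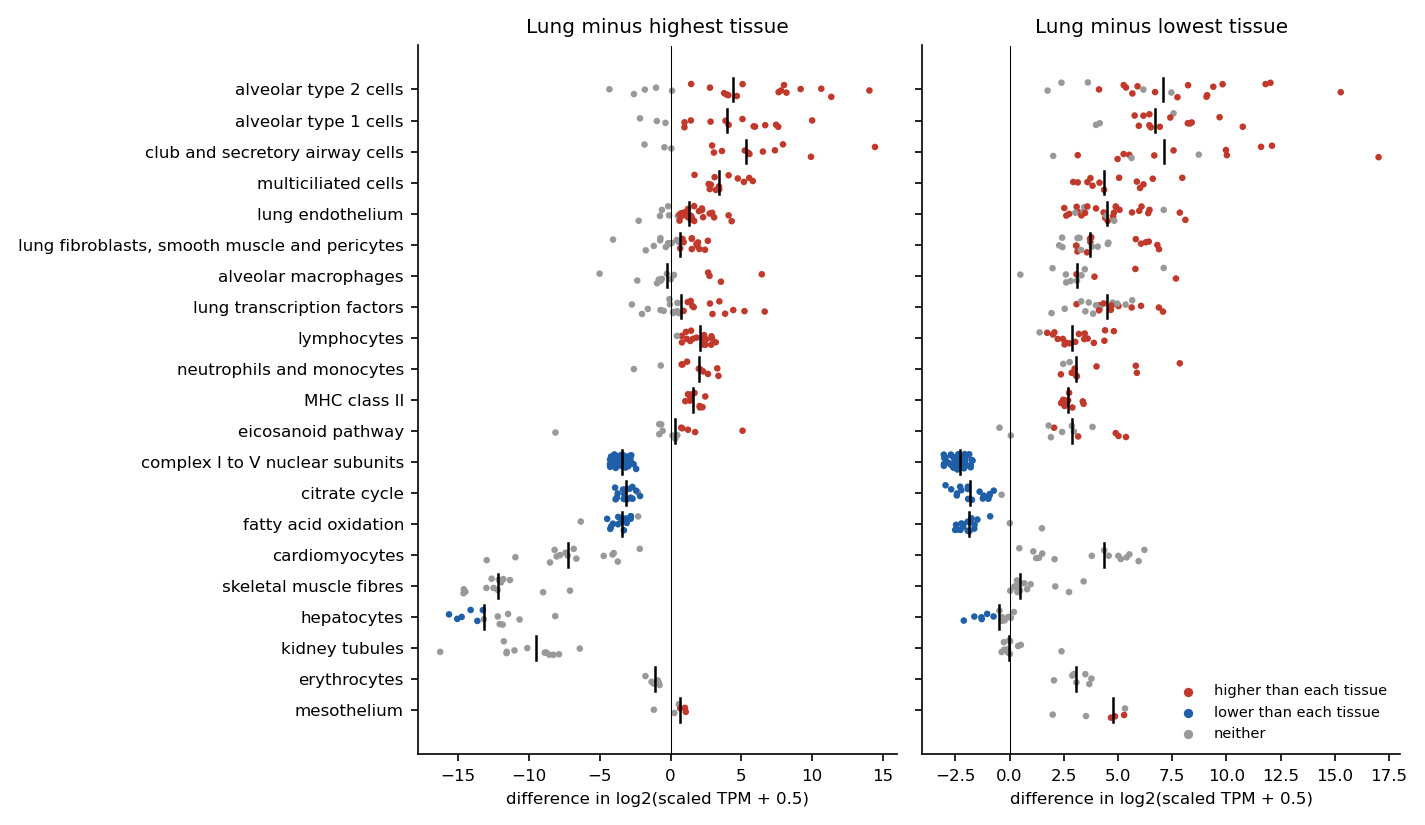
Each point is a gene, grouped by the 21 lists, with the log2 difference of lung from the highest of the 4 tissues and from the lowest, and black bars mark medians. Epithelial lists lie to the right of 0 against the highest tissue (medians of 3.41 to 5.36 for AT2, AT1, club and multiciliated genes), and the respiratory chain lies to the left of 0 against the lowest (median -2.30).

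Genes of mitochondrial energy metabolism were lower in lung. All 44 nuclear subunits of complexes I to V tested were lower than in each of the 4 tissues and 43 did not overlap, with a median of -2.30 (log2) from the lowest tissue against 0.58 for all genes. With deposited TPM 34 of the 44 were lower and the median was -0.85. Among all genes tested, 9.87% were lower on scaled and 2.25% on deposited values. Cox4i1, a subunit of cytochrome c oxidase, had 278, 331 and 496 scaled TPM in lung, 1125, 1388 and 1947 in liver and 1824, 4108 and 6419 in heart (-2.07 ± 0.08 against liver, adjusted p 2e-49). Atp5b, the catalytic beta subunit of ATP synthase, had 291 (263 to 337) against 1907 (1606 to 2184) in muscle (-2.70 ± 0.06), and Uqcrq, of complex III, had 138 (115 to 236) against 1315 in kidney (-3.03 ± 0.10).

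Sdha, the flavoprotein of complex II, had 62.3 (57.3 to 70.1) against 297 (209 to 357) in liver (-2.22 ± 0.06). Ndufb3, of complex I, was the subunit that overlapped, with 36.2 to 90.3 in lung and 88.7 to 239 in liver (-1.79 ± 0.09). Cox5b had 93.3, 111 and 152 in lung and 423, 746 and 956 in liver (-2.57 ± 0.09), and the sequence upstream of it (chr1:36691237-36691448, plus strand, GRCm38.p6) is shown because it held TGCGCA, the core of the NRF1 motif of respiratory genes, in capitals, 52 bases before the RefSeq start.
Cox5b: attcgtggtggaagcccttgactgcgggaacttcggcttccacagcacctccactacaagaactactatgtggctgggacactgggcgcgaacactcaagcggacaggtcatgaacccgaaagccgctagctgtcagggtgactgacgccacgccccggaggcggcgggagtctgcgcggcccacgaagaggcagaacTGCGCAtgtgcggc
The core reads the same on both strands and was present in 6.43% of all windows, and was not found upstream of Atp5g1, a subunit of ATP synthase. Only 32 of the 44 subunit genes had a window, and 7 of their 36 windows held the core. Among the windows of all genes tested the share was 10.4%, and the difference was not tested.

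In the citrate cycle 17 of 18 genes were lower in lung, all but Ogdh, with a median of -1.82 from the lowest tissue. With deposited TPM the count was 6 and the median -0.40, against 2.25% of all genes tested lower on those values. Cs, citrate synthase, had 32.1 (28.9 to 38.7) against 63.4 (47.0 to 82.7) in liver (-0.93 ± 0.06) and Mdh2, malate dehydrogenase, had 71.3 (61.9 to 79.1) against 276 (197 to 345), a difference of -1.91 ± 0.06. Idh3g, a subunit of isocitrate dehydrogenase, differed by -0.92 from the lowest tissue, but by 0.59 with deposited TPM. Ogdh, of the oxoglutarate dehydrogenase complex, had 53.0 (37.4 to 59.6) in lung and 67.1 (43.6 to 90.0) in liver.

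Of 18 genes of fatty acid oxidation, 16 were lower in lung (median -1.88, with 13 lower and a median of -1.05 for deposited TPM). The shares of all genes tested were 9.87% and 2.25%. Acadm, the medium-chain acyl-CoA dehydrogenase, had 36.6 (29.6 to 46.4) against 212 (162 to 266) in muscle (-2.51 ± 0.07), and Acaa2, a thiolase, differed by -1.48 ± 0.07. The exceptions were the carnitine palmitoyltransferases Cpt1a and Cpt1b, whereas Cpt2 was lower in lung (-2.22 from the lowest tissue). Cpt1a, the liver form, had 18.7 (12.7 to 31.9) in lung against 5.97 (4.60 to 9.54) in muscle, the lowest tissue, and Cpt1b, the muscle form, had 1.10 (0.579 to 1.93) in lung and 1.01 (0.560 to 2.17) in liver (0.01 ± 0.08).

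Among genes on no list, the 12 largest shortfalls in lung were those of Fitm1, Mup22, Ephx2, Mcrip2, Coq8a, Clybl, Ggnbp1, Atp5g1, Dgat2, Mpc2, Got1 and Coq9, of which Mup22 belongs to a family of near-identical genes and is uncertain. Fitm1, which acts in lipid droplet formation, had 0.270, 0.493 and 1.41 scaled TPM in lung and 21.3, 31.5 and 40.8 in kidney (-4.91 ± 0.11). Ephx2, soluble epoxide hydrolase, had 2.47 (1.40 to 3.83) against 41.1 (21.8 to 74.0) in muscle (-3.80 ± 0.09). Coq8a and Coq9, of coenzyme Q synthesis, had 6.17 against 86.3 in kidney (-3.60 ± 0.14) and 18.0 against 131 in liver (-2.81 ± 0.06). Mpc2, the mitochondrial pyruvate carrier, had 44.5 (36.1 to 63.8) against 361 (265 to 508) in muscle (-3.00 ± 0.09), and Dgat2, which makes triglyceride, had 12.7 (3.99 to 28.6) against 91.3 in kidney (-3.01 ± 0.14).

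Markers of the other tissues were not higher in lung. To be called, a gene had to exceed the very tissue that its list marks, so these counts are a description. None of the 15 cardiomyocyte genes, the 13 skeletal muscle genes or the 12 kidney tubule genes was higher in lung, and of 13 hepatocyte genes 0 were higher and 6 lower. The summed level of the cardiomyocyte list had a lung median of 287.6 scaled TPM and a maximum of 819.7, against 16233 to 74069 in heart, and Myl7, the atrial myosin light chain, had 36.0, 68.6 and 178 in lung and 103, 1237 and 3181 in heart. Myh6, the cardiac myosin heavy chain, had 29.7 (16.6 to 105) in lung against 5617 in heart. The liver product Alb had 0.413 (0.219 to 0.954) in lung. The erythrocyte list, carried by haemoglobin genes that may share reads, had a summed median of 33053 in lung and 80883 in heart.

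The same comparison within the libraries of IH-exposed mice gave 1552 genes higher in lung (12%) and 1874 lower (14.4%). Of the higher genes, 1211 were shared, which is 75.8% of the normoxia list and 78.0% of the IH list. For the lower genes 1204 were shared, 94.0% and 64.2% of the lists. All 169 genes that were at least 8-fold higher in normoxia were also higher in the IH libraries. The AT2, club, multiciliated and MHC class II lists had 15, 11, 13 and 10 higher genes in both treatments, whereas the endothelial list went from 24 to 13, with Pecam1 no longer called (0.10), the lymphocyte list from 17 to 14, the eicosanoid list from 5 to 2 and the mesothelial list from 3 to 0. Whether these differences between treatments exceed their error was not tested.

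Within the lung, the IH and normoxia libraries were set side by side for the 1598 genes. Of these, 45 (2.82%) rose and 210 (13.1%) fell after IH, against 4.79% and 4.77% (9.56% in either direction) of all genes tested. The list was defined on the same normoxia libraries, so nothing was read from this count. When the 1552 genes higher in IH were taken instead, 179 rose (11.5%) and 136 fell (8.76%), and with deposited TPM 144 of the 1598 rose (9.01%) and 21 fell (1.31%), against 13.6% and 0.385% of all genes tested. The median gene shifted by -0.11 on the scaled and by 0.17 on the deposited values, and changes are therefore also given relative to it. The summed count of 255 changed genes was 219 without replicate 1, 182 without replicate 2 and 448 without replicate 3, and 185 without the 3 IH lungs of lowest correlation with the others (1:30 replicate 2, 22:30 replicate 1 and 7:30 replicate 2, at median correlations of 0.927, 0.952 and 0.954 against 0.978 for the IH lungs).

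Relative to the median of all genes, the median of the list was -0.53 (log2) for AT2, -0.44 for AT1, -0.59 for club, -0.42 for multiciliated and -0.39 for endothelial genes, and -0.50, -0.41, -0.56, -0.39 and -0.36 with deposited TPM. It was -0.65 for erythrocytes, -0.51 for MHC class II and -0.47 for lymphocytes (-0.62, -0.48 and -0.45 with deposited TPM), and 0.27 for alveolar macrophages, 0.48 for cardiomyocytes and 0.70 for skeletal muscle fibres (0.29, 0.51 and 0.71). The part of these other cell types in the epithelial and endothelial values was not tested. The numbers of genes that fell were 12 of 20 for AT2 and 13 of 30 for endothelial genes on scaled values and 1 and 2 on deposited values. Among all genes tested, 4.77% fell on scaled and 0.385% on deposited values. On levels scaled over the 48 lungs, Sftpc had 17832, 20047.5 and 24739 scaled TPM in normoxia and 4203, 13713 and 18761 after IH, and Scgb1a1 had 56303, 65142 and 155657 in normoxia and 7164, 44620 and 72728 after IH.

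The IH lungs were spread widely, within and between replicate numbers. Sftpc in replicate 2 had 4203, 6180 and 6334 scaled TPM at 1:30, 7:30 and 19:30 and 12268 to 18761 at the other time points, and in replicate 3 it had 13372 to 16843. Sftpb had a median of 783 over the 8 time points in replicate 1, 1070.03 in replicate 2 and 2211 in replicate 3 after IH, against 2255 (1588 to 2698) over all normoxia lungs. Ager had 460, 585 and 956 in the same order, against 1180 (734 to 1429). Cox4i1 had 328, 261 and 226 after IH and 294, 341 and 369 in normoxia, so that the difference had opposite signs in replicates 1 and 3. Chil3 had 159, 217 and 261 after IH against 126 (19.1 to 284) in normoxia. Nkx2-1 was close in both treatments, with 60.6 (46.3 to 67.6) and 57.4 (43.2 to 68.2). The IH lungs had more genes above 0 (23600 to 28259, against 21733 to 25374), and the part of this in the differences was not tested.

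**Figure D4:**
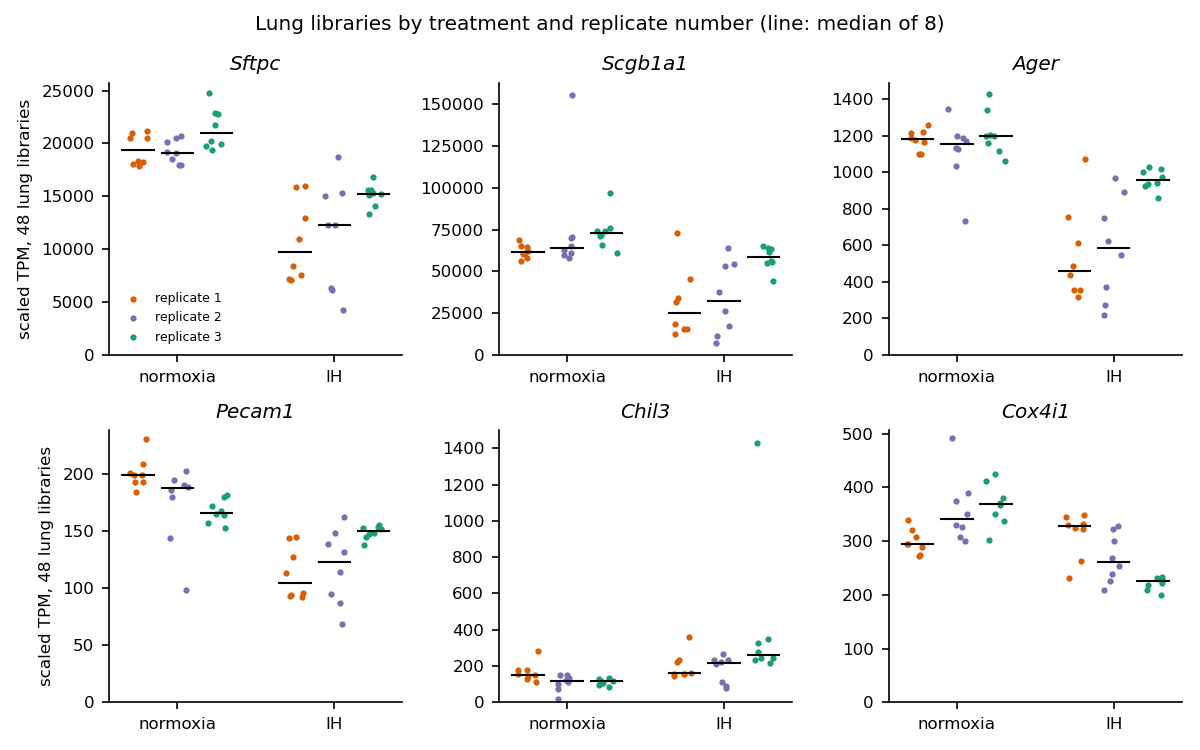
Each point is a lung library, by treatment and replicate number, with scaled TPM on the vertical axis and lines at the median of 8 time points. After IH the median of Sftpc was 9690 in replicate 1, 12274 in replicate 2 and 15266 in replicate 3, all below the normoxia median of 20047.5.

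Time of day was tested within the normoxic lungs, with 3 libraries at each of 8 time points. Of the 1598 genes, 50 (3.13%) varied with time point by limma, against 1.76% of all genes tested, and 281 (17.6%) did so at an unadjusted p of 0.05, against 11.01%. All genes tested include genes hardly expressed in lung, as the minimum could be met in any tissue. The shares are thus not on equal terms. The count was 1 without replicate 1, 24 without replicate 2, 3 without replicate 3 and 75 without the lung of 1:30 replicate 2. Cxcl15 had its highest mean at 4:30 (512 ± 55.2 scaled TPM, SD, n = 3) and its lowest at 13:30 (183 ± 17.1, limma adjusted p 0.00017). Acoxl, an acyl-CoA oxidase-like gene, had its extremes at the same times, with 33.2 ± 2.94 and 11.97 ± 2.36 (limma adjusted p 0.00073).

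Fmo2 and Nxph3 had their highest means at other times. Fmo2, the flavin monooxygenase of lung, had 292 ± 37.6 scaled TPM (SD, n = 3) at 10:30 and 141 ± 5.59 at 4:30 (limma adjusted p 0.00082). Nxph3 had 4.67 ± 0.41 at 22:30 and 1.61 ± 0.194 at 13:30 (limma adjusted p 2.6e-05).

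**Figure D5:**
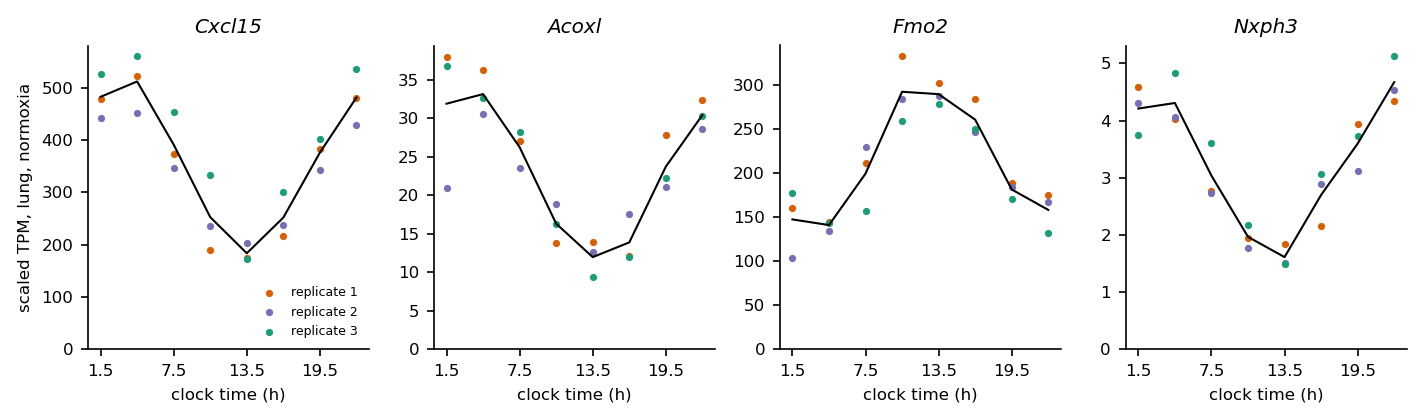
Each point is a normoxic lung library, by clock time, with scaled TPM on the vertical axis and a line through the means of 3 libraries. Cxcl15 and Acoxl are highest at 4:30 and lowest at 13:30, Fmo2 is highest at 10:30 and Nxph3 at 22:30.

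Lung was also set against cerebellum, with the same lung libraries that chose the genes, so a higher share was favoured by that choice and the counts are a description. Of the 1598 genes, 1365 (85.4%) were also higher in lung than in cerebellum, against 39.4% of all genes tested, and 89 (5.57%) were lower in lung than in cerebellum, against 27.5%. The AT1, club and multiciliated lists had 16 of 16, 14 of 14 and 13 of 13 genes tested higher in lung, and the AT2 list had 19 of 20. None of the 44 subunits of complexes I to V was higher in lung than in cerebellum.

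Spread among the 24 lungs was larger for lung-high genes than for genes in general, with a median SD of 0.259 (log2) against 0.174. Genes in general include those hardly expressed in lung, for which the pseudocount can narrow the SD. The medians are thus not on equal terms. Club and multiciliated genes had list medians of 0.328 each, neutrophil and monocyte genes 0.434, and subunits of complexes I to V 0.157. Single genes were ranked by SD among the 568 higher genes with a lung mean of at least 20 scaled TPM. The 10 most variable included Chil3 (0.683), S100a9 (0.669), S100a8 (0.662), Acoxl (0.581) and Cxcl15 (0.554). Of these, Acoxl and Cxcl15 varied with time point as given above. Chil3 (19.2 scaled TPM) and S100a8 (25.6) had their lowest lung values in the lung library of highest Scgb1a1, which stood apart. All SDs given here include that library and were not computed without it.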

How the data were processed

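RNA was sequenced from whole tissue (total RNA extracted with Trizol, NEBNext Ultra II Directional libraries). The authors quantified reads with Kallisto against the Ensembl mouse release 102 transcriptome (mm10) and added up transcripts by gene. The deposited unit is TPM per gene and library. The files hold no counts, so the counting error of single values is unknown. Each library was divided by a median-of-ratios factor over 14791 genes and tested as log2 with a pseudocount of 0.5. The model (limma 3.58.1 in R 4.3.3, intensity trend, 5 tissues, 2-sided) gave 4 contrasts per gene, of which the largest p was adjusted over 12977 genes. The procedure was tested on simulated data with known changes. Tables and figures were made with Python 3.11.15, pandas 2.3.3, numpy 2.4.6 and matplotlib 3.10.9. Lung after IH, time point and lung against cerebellum were tested by the same model, each on its own libraries.

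The members and gene lists were chosen with earlier results of these data known. Genes named are up to 6 per list by lung mean and defining markers, the 12 largest differences in each direction among genes on no list with a mean of at least 20 (leaving out predicted symbols, antibody and T cell receptor segments and mitochondrially encoded genes), and the 10 of highest lung mean. Genes named beyond that rule (those of lists that were not called, of single libraries, of time points and of IH) were chosen after their values were seen. Positions are from GENCODE mouse release 21 and upstream sequences from RefSeq. Alternatives were the scaling, pseudocounts of 0.1 and 1, minimum means of 1 and 10 and no minimum, time point as a term, a replicate block, single-tissue fits and leaving out each replicate. Single results for some genes are not reported here.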

Additional observations from a re-analysis of the deposited data

How the results depend on the processing

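The count of genes higher in lung in normoxia (1598) ran from 1535 to 1636 when each replicate was left out and the count of lower genes (1281) from 1265 to 1321. With TPM as deposited, 4607 genes were higher and 292 lower in normoxia, 5506 and 284 in IH, 165 lung-high genes changed in lung after IH and 14 varied with time point. With no minimum on the mean, 2634 genes were higher in lung in IH and 19 lung-high genes varied with time point. Leaving out each replicate gave 182 to 448 genes changed after IH, 1 to 24 that varied with time point, 1514 to 1547 higher and 1838 to 1911 lower in IH, and 1364 to 1366 higher than in cerebellum. Under the other alternatives run these counts stayed within 1.5 times the reported ones. Without the lung of 1:30 replicate 2, 75 varied with time point. The cause of these shifts was not tested.

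Of the 153 named genes, 136 kept their direction and side of the threshold with TPM as deposited, and Idh3g reversed, to 0.59. The settings without libraries of raised Scgb1a1, without the lung of 1:30 replicate 2 and without the 3 IH lungs of lowest correlation were chosen after seeing the data. Of 96 same-numbered pairs of lung and another tissue, 28 had a correlation of deviations over 0.1, 17 of them among the 24 pairs of lung and muscle, and not every pair did, so the numbers were not taken to pair the samples. With the replicate block, 1599 genes were higher and 1281 lower in normoxia, 1554 and 1874 in IH, 254 changed after IH, 72 varied with time point and 1365 were higher than in cerebellum.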
